A study of Homo sapiens with 4 samples.

Results

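Chromosome 14 carried some of the sparsest H3K9me2 of any autosome in these K562 cells. It is described here through all peaks of 4 deposited peak lists on that chromosome (build hg19) that start at 19000000 or later, outside 2 stretches, from 22.1 to 23 Mb and from 106 to 107 Mb. That rule took 16770 of 1000000 listed peaks, or 1.68%, of which 3681 and 3387 came from the control libraries 1 and 2 and 5620 and 4082 from the knockout libraries 1 and 2. The chromosome was chosen by its covered share in these same lists, low against other chromosomes, and by the drop in coverage near 41 Mb, so both are given as descriptions and neither is tested. The comparison of control with knockout libraries was open to a test.

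H3K9me2 is histone H3 dimethylated at lysine 9. The mark is written mainly by the methyltransferases G9a and GLP and lies over broad, mostly silent stretches of chromatin, often those held at the nuclear periphery. Chromosome 14 is acrocentric: its short arm is made of repeats that are largely absent from the assembly, so what is mapped is the long arm. CUX1 is a homeodomain transcription factor that acts as a tumor suppressor in myeloid cells.

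The assay, CUT&RUN, sequences the DNA that a nuclease cuts free from marked nucleosomes after an antibody has brought it there. All 4 libraries came from K562, an established human myeloid leukemia cell line with a rearranged, aneuploid genome. The 2 control libraries had a guide RNA against HPRT, a gene commonly targeted as a neutral control, and the 2 knockout libraries had a guide against CUX1. The labels call the latter a knock-out, while the peak names of both carry the tag "cux1kd" and those of control 1 a "sub" tag, neither of which the labels explain. The labels do not say whether libraries of a group came from separate cultures or clones, so the p-values measure the spread between these libraries, which may be technical. With 2 libraries against 2, the exact permutation test cannot give a two-sided p under 0.333.

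Each list held 250000 peaks, so the number listed was fixed and only its distribution over the genome could vary. The covered length of chromosomes 1 to 22 and X was 693 and 679 Mb in the controls against 423 and 585 Mb in the knockouts, and it was lowest in knockout 1. The weakest listed peak had a -log10 p of 1.25 and 1.27 in the controls against 1.49 and 1.35 in the knockouts. The smallest peak width, 362 and 369 bp in the controls against 263 and 339 bp in the knockouts, also differed by library. The depth of the reads is unknown. These gaps between lists moved with the groups, and their part in the group differences reported here was tested only through the 3 readings that put the lists on a common footing, named where they are used.

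Peaks covered 9.73% and 7.30% of the counted 86.2 Mb of chromosome 14 in controls 1 and 2, and 8.59% and 7.32% in knockouts 1 and 2. The groups overlapped, with both knockouts between the controls. Over the length that peaks span, these shares were 9.88%, 7.42%, 8.72% and 7.44%, against 26.1%, 25.8%, 15.9% and 22.3% over the other autosomes. Chromosome 14 thus held 0.378, 0.288, 0.548 and 0.334 of the coverage of the other autosomes in the same order, and the ratio was highest in knockout 1, the library with the least covered length. Ranked from the sparsest among 23 chromosomes, it stood at place 3 in both controls, 5 in knockout 1 and 4 in knockout 2.

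**Figure D1:**
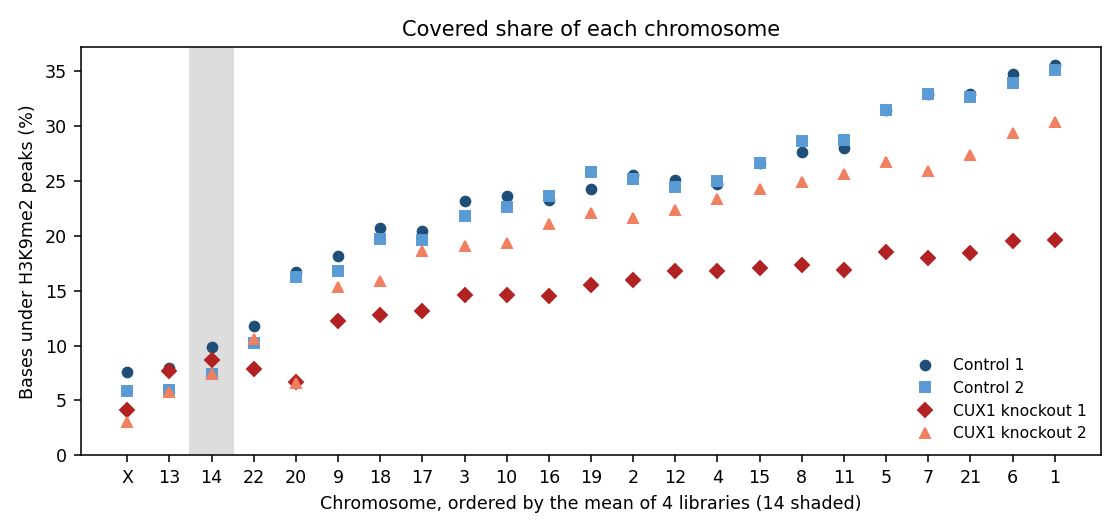
Percent of bases under H3K9me2 peaks (y axis) on each of 23 chromosomes (x axis, ordered by the mean of 4 libraries), with 1 point per library. On chromosome 14 (shaded) the points lie between 7.42% and 9.88% and the groups overlap, while the knockout mean was below the control mean on all 23 chromosomes.

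The sparse coverage was not shared by all acrocentric chromosomes. Chromosome 13 was sparser still, at 7.97%, 5.92%, 7.68% and 5.79%. Chromosome 15 was covered over 26.7%, 26.7%, 17.1% and 24.3%, about the level of the other autosomes. Chromosome 22 lay in between, at 11.8%, 10.2%, 7.84% and 10.6%. Chromosome 21 was the densest of the acrocentric chromosomes in all 4 libraries, at 32.9%, 32.6%, 18.4% and 27.3%. X was the other chromosome below 14 in all 4 libraries, while chromosome 20 was below it in both knockouts, and chromosome 22 in knockout 1.

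Listed peaks on chromosome 14 were both fewer and narrower than elsewhere. Controls 1 and 2 had 43.4 and 39.9 peaks per Mb there against 93.6 and 93.8 over the other autosomes, and knockouts 1 and 2 had 66.2 and 48.1 against 92.8 and 94.2. The mean width was 2278, 1858, 1317 and 1546 bp, against 2793, 2748, 1715 and 2366 bp over the other autosomes. The ratio to the other autosomes was 0.463, 0.425, 0.714 and 0.511 for number and 0.816, 0.676, 0.768 and 0.653 for width, so in all 4 libraries number was further below the other autosomes than width.

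Long domains, the form in which this mark is best known, were rare on chromosome 14. Peaks of at least 5 kb made up 7.72%, 4.52%, 1.103% and 2.25% of its peaks, against 12.8%, 12.2%, 2.75% and 8.15% on the other autosomes. Both knockouts had lower median widths than both controls on all 23 chromosomes (100%), so narrower peaks were not particular to this one. Peaks of at least 10 kb, not counted on the other autosomes, numbered 12 and 4 in the controls against 0 and 0 in the knockouts. The widest were a 13.4-kb peak at chr14:30975996-30989435 in control 1, a 16.3-kb peak at chr14:21164212-21180559 in control 2, a 9.79-kb peak at chr14:21394324-21404108 in knockout 1 and a 9.97-kb peak at chr14:97045922-97055889 in knockout 2. Each was overlapped by peaks in at least 2 of the other libraries, and all lay outside the sparsest stretches.

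By the authors' own values the listed peaks were close to those elsewhere in p and lower in -log10 q. Their median -log10 p was 1.39, 1.43, 1.68 and 1.52, against 1.46, 1.47, 1.67 and 1.54 on the other autosomes. The median -log10 q was 0.0085, 0.0206, 0.0336 and 0.0317, against 0.0142, 0.0327, 0.0456 and 0.0474, and so lower on chromosome 14 in all 4 libraries. Peaks at q of 0.05 numbered 0, 4, 0 and 6 of 3681, 3387, 5620 and 4082, and those on the other autosomes were not counted. The strongest single peaks reached a -log10 p of 3.26 in control 1 (chr14:64108301-64109617), 4.69 in control 2 (chr14:36295427-36296273), 3.26 in knockout 1 (chr14:29484730-29485103) and 5.59 in knockout 2 (chr14:23563800-23565487). Most of the chromosome's peaks were therefore weak by the caller's measure, in every library. By the medians above, so were those on the other autosomes.

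**Figure D2:**
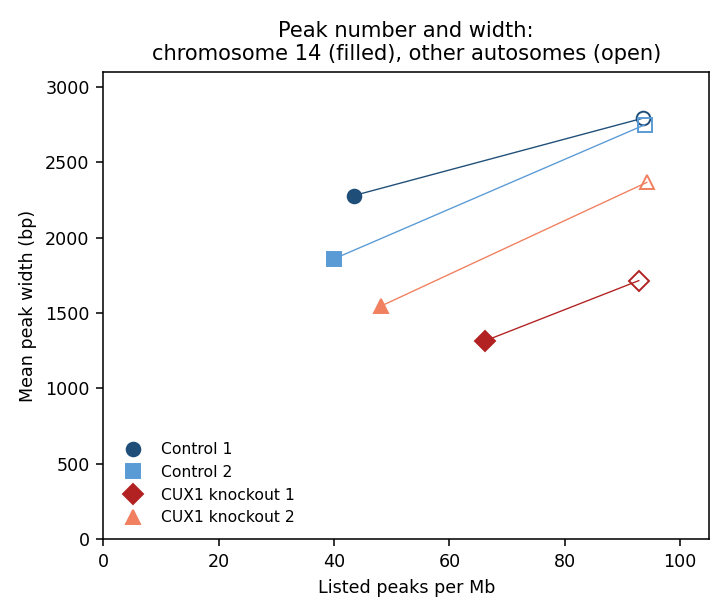
Listed peaks per Mb (x axis) against mean peak width in bp (y axis), with a filled symbol for chromosome 14 and an open symbol for the other autosomes, joined by a line for each library. Every filled symbol lies to the left of and below its open one, from 2278 against 2793 bp in control 1 to 1317 against 1715 bp in knockout 1.

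Windows of 1 Mb showed that low coverage ran along most of the chromosome. Over 85 windows with peaks the median was 9.48%, 7.44%, 8.94% and 7.51%, against 27.9%, 28.2%, 17.1% and 24.8% on the other autosomes. Windows over 20% numbered 2, 1, 1 and 1. Windows under 5% made up 21.2%, 24.7%, 25.9% and 30.6% of the chromosome's windows, against 4.84%, 8.30%, 7.87% and 9.29% elsewhere. At 100 kb the median of 848 windows was 8.20%, 5.99%, 7.18% and 6.12%, again under that of the other autosomes in each library (27.9%, 28.0%, 16.2% and 23.7%).

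The densest stretches were few and short. The window with the highest mean among those counted in full lay at 97 to 98 Mb, with 20.1% and 19.0% in the controls against 12.1% and 16.7% in the knockouts. Windows at 34 to 35 Mb (19.0%, 13.7%, 20.4% and 11.5%), 32 to 33 Mb (18.6%, 12.4%, 18.9% and 14.5%), 21 to 22 Mb (18.6%, 14.4%, 16.5% and 14.1%) and 67 to 68 Mb (16.0%, 10.7%, 19.4% and 13.9%) came next. Of these 5, only the window at 97 to 98 Mb had both knockouts below both controls, as 63.9% of all 1-Mb windows did. The window at 23 to 24 Mb, of which the first 20 kb were left out, was higher than any of them in mean, at 27.4%, 23.9%, 15.5% and 24.98%. It held the 4 densest windows of 100 kb, which start at 23600001, 23200001, 23700001 and 23500001, and the densest of these was covered over 44.6%, 43.0%, 16.9% and 33.4%. The window of 100 kb starting at 20300001, near the first peaks of the long arm, was the fifth, with 31.1%, 44.3%, 23.4% and 29.5%.

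The sparsest windows lay in 2 troughs. At 85 to 86 Mb peaks covered 2.77% and 3.05% in the controls against 1.25% and 0.972% in the knockouts, at 84 to 85 Mb 3.55%, 1.93%, 1.46% and 1.82%, and at 86 to 87 Mb 3.92%, 2.59%, 1.91% and 1.82%. At 42 to 43 Mb the values were 2.88%, 2.42%, 2.22% and 1.61%, and at 43 to 44 Mb 4.18%, 1.86%, 1.72% and 1.89%. In the 4 of these 5 windows other than 43 to 44 Mb, both knockouts were below both controls. The same held in 63.9% of all 1-Mb windows of the genome, and in 43.5% of those at 1 to 5% on the other autosomes. Among windows of 100 kb, that starting at 87800001 was listed at 0 in both controls and covered over 0.337% and 0.498% in the knockouts, and those starting at 35000001, 84200001, 66800001 and 40900001 followed. Runs of at least 3 neighbouring 1-Mb windows with a mean under 5% stood at 40 to 45 Mb, 46 to 49 Mb and 83 to 88 Mb.

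**Figure D3:**
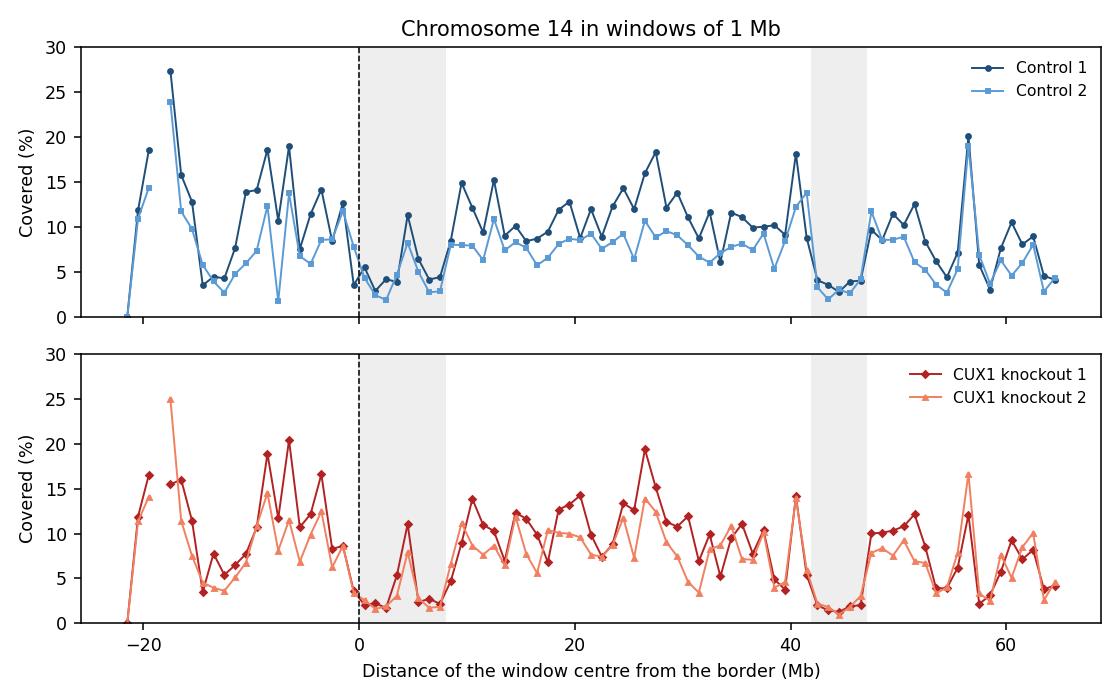
Percent of each 1-Mb window of chromosome 14 under peaks (y axis) by the distance of the window centre from the 41-Mb border in Mb (x axis, dashed line at 0), controls above and knockouts below, with 1 line per library. The shaded troughs at 0 to 8 Mb and 42 to 47 Mb from the border are covered over 5.35%, 4.01%, 3.71% and 2.93%, and over 3.67%, 3.01%, 1.72% and 1.96%.

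The profile along the chromosome was similar in all 4 libraries at this scale, although the peaks themselves were mostly not the same ones. Over the 85 windows Pearson's r between libraries ran from 0.662 (control 2 with knockout 1) to 0.891 (control 1 with knockout 2), and was 0.827 between the controls and 0.813 between the knockouts. Over windows of 100 kb it ran from 0.453 to 0.586. These are correlations across windows of 1 chromosome, which neighbour each other and are not replicates. Of the 22.3 Mb covered in any library, 77.4% was covered in 1 library alone, against 48.4% on chromosome 1 and 79.2% on chromosome 13. That share depends on the level of coverage: relative to the product of the 2 coverages, the overlap of a pair of libraries was 1.88 to 2.63 on chromosome 14 and 1.25 to 1.30 on chromosome 1. Only 113 kb, or 0.508%, was covered in all 4 libraries, in 165 stretches with a median of 594 bp. The longest of these was 2525 bp at chr14:54862458-54864982.

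Sharing was low in both troughs, and pairs of libraries from one group did not stand apart from pairs across groups. From 20 to 26 Mb 62.7% of the covered bases were covered in 1 library alone, while from 41 to 49 Mb it was 90.4% and from 83 to 88 Mb 95.0%. Mean coverage over the libraries was 14.7%, 4.00% and 2.59% in these stretches. The shares depend on that level and were not corrected for it. Of the 165 stretches covered in all 4 libraries, 58 lay before 41 Mb, 1 between 41 and 49 Mb and 0 between 83 and 88 Mb. Bases covered in both controls and in neither knockout came to 656 kb, and bases covered in both knockouts and in neither control to 573 kb. The other pairings gave 913 kb (the libraries numbered 1), 646 kb (those numbered 2), 688 kb (control 1 with knockout 2) and 578 kb (control 2 with knockout 1).

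Near 41 Mb coverage dropped, going away from the centromere, by 1.81-fold to 2.38-fold. From 36 to 41 Mb peaks covered 10.1% and 8.53% in the controls against 9.85% and 8.12% in the knockouts. From 41 to 46 Mb they covered 5.55%, 4.31%, 4.48% and 3.41%. The drop was thus 1.81-fold and 1.98-fold in the controls and 2.20-fold and 2.38-fold in the knockouts, and the groups did not overlap. On the log2 scale the mean was 0.92 in the controls and 1.19 in the knockouts (exact permutation test, two-sided, p = 0.333). The order of the groups depended on the reading: with the common limit on -log10 q the drop was 2.91-fold and 2.37-fold in the controls against 2.19-fold and 2.17-fold in the knockouts, a log2 difference of -0.27, again without overlap. With the common limit on -log10 p and at equal covered length the log2 difference was 0.53 and 0.24.

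In listed peaks, the drop was larger in peak number than in peak width. Peaks per Mb went from 44.2, 44.2, 76.6 and 55.0 on the side toward the centromere to 28.8, 27.2, 40.6 and 29.2 on the other, a ratio of 1.54, 1.63, 1.89 and 1.88. The ratio of mean widths was 1.18, 1.22, 1.17 and 1.26. By serial number the ratio of called peaks was 1.155, 1.38, 1.82 and 1.503, which in control 1 was below that of width. The listed number ratio did not overlap between groups, with a log2 mean of 0.66 in the controls and 0.91 in the knockouts. The ratios of mean widths overlapped. Those of median widths did not, at 1.46 and 1.25 in the controls against 1.07 and 1.21 in the knockouts, the opposite direction from number.

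Window by window, the drop was not a single sharp edge. Coverage at 36 to 37 Mb was 11.4%, 5.89%, 12.2% and 9.89%, at 37 to 38 Mb 14.2%, 8.56%, 16.6% and 12.5%, and at 38 to 39 Mb 8.42%, 8.62%, 8.29% and 6.23%. At 39 to 40 Mb it was 12.7%, 11.8%, 8.61% and 8.64%, and at 40 to 41 Mb 3.54%, 7.80%, 3.59% and 3.38%. In 3 libraries coverage was therefore under 5% already at 40 to 41 Mb, before the border, and only control 2 was still above 5% there. Past the border the values were 5.49%, 4.33%, 2.06% and 2.58% at 41 to 42 Mb, and 3.88%, 4.69%, 5.34% and 3.06% at 44 to 45 Mb. At 45 to 46 Mb coverage rose again to 11.3%, 8.23%, 11.1% and 7.94%, an island above the chromosome's own mean inside the trough, before the run at 46 to 49 Mb of 5.00%, 3.52%, 2.42% and 2.12%.

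In the whole lists the place of the steepest step differed between the groups. It was not located in the 3 common readings. The single split of the 100-kb windows from 36 to 46 Mb that left the least spread lay at 40 Mb in control 1, 40.5 Mb in control 2 and 38.2 Mb in both knockouts. The same positions came from the wider range of 31 to 51 Mb. From 36 to 38.2 Mb peaks covered 12.5%, 7.66%, 14.9% and 11.8%, and from 38.2 to 40 Mb 10.7%, 10.0%, 7.10% and 6.23%. The ratio of the former to the latter was 1.165 and 0.766 in the controls against 2.103 and 1.90 in the knockouts. Since 38.2 Mb was the split of both knockouts in these same lists, that choice favored a higher ratio in them. The ratio is a description and has no test. It did not overlap between the groups in the whole lists or in any of the 3 common readings. Those readings are cut from the same lists, so they give no separate support.

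**Figure D4:**
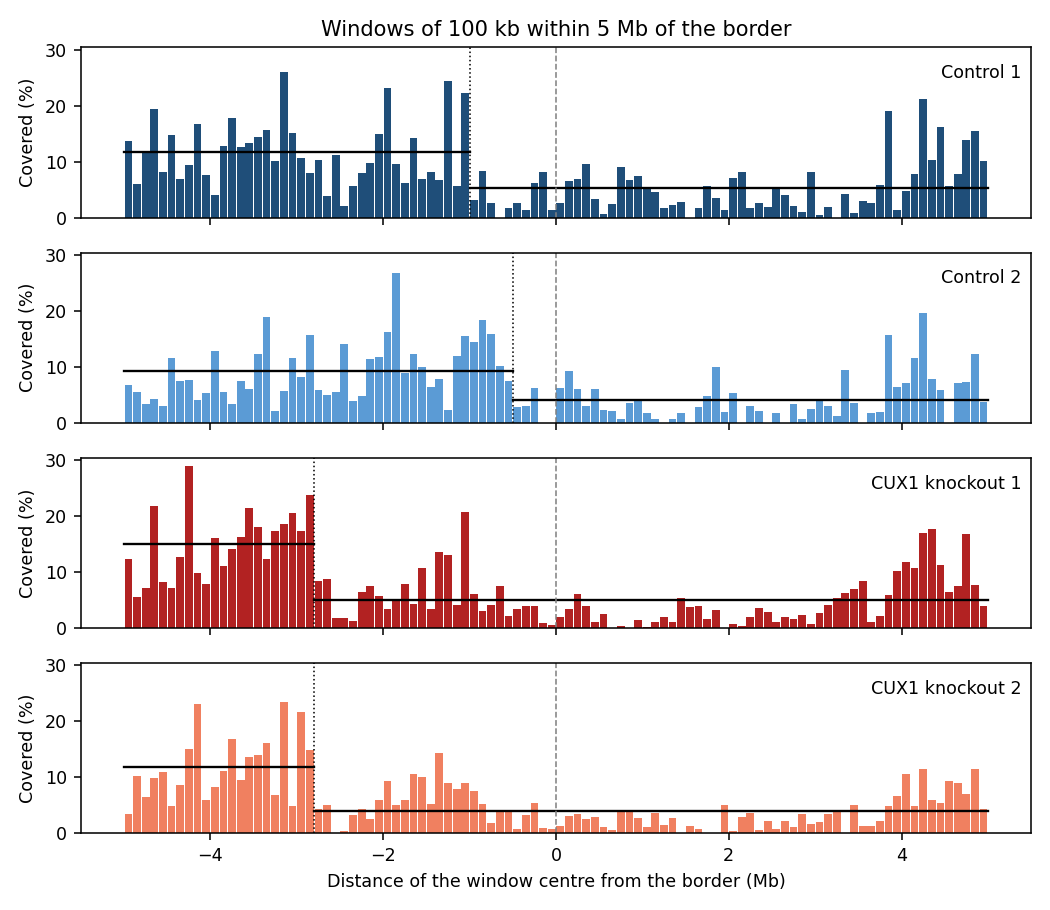
Percent of each 100-kb window under peaks (y axis) within 5 Mb of the 41-Mb border (x axis, distance in Mb, dashed line at 0), 1 panel per library, with the mean on each side (solid) of the best single split (dotted). The split lies 1.0 and 0.5 Mb before the border in controls 1 and 2 and 2.8 Mb before it in both knockouts.

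Over the whole chromosome, the 41-Mb border parted 11.4%, 8.46%, 10.6% and 8.83% on the side toward the centromere from 9.19%, 6.93%, 7.93% and 6.84% on the other. The log2 ratio of the second to the first was -0.31 and -0.29 in the controls against -0.42 and -0.37 in the knockouts. The groups did not overlap, with means of -0.30 and -0.40 (exact permutation test, two-sided, p = 0.333). This group difference of -0.10 was lost when the weakest peaks were removed from the lists: it was 0.01 with a limit of 1.49 on -log10 p common to all lists, 0.09 with a common limit of 0.0335 on -log10 q and -0.02 with lists cut to an equal covered length.

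Coverage of chromosome 14 as a whole did not differ between control and knockout beyond the spread of the libraries. It was 8.52% ± 1.72 (SD, n = 2) in the controls and 7.96% ± 0.89 (SD, n = 2) in the knockouts, a difference of -0.563 points (exact permutation test, two-sided, p = 1). Its direction depended on the reading: cutting all lists to the covered length of knockout 1 gave 4.34% and 3.804% in the controls against 8.59% and 5.34% in the knockouts, 2.89 points higher in the latter. The common limit on -log10 p gave 2.66% and 2.65% against 8.59% and 4.41%, a difference of 3.84 points, and that on -log10 q gave 1.09% and 2.54% against 4.47% and 3.82%, a difference of 2.33 points. The knockouts did not overlap the controls in these 3 readings, and knockout 1, whose list the limit on p and the equal length leave whole, was highest in each.

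The ratio of knockout to control coverage on chromosome 14 was 0.934, the highest of all 23 chromosomes but 13 (0.970). Both knockouts lay below both controls on 20 of the 23 chromosomes (87%), and chromosome 14 was among the 3 others. The median ratio of the other 22 chromosomes was 0.749, and the lowest was 0.403 on chromosome 20. Relative to the mean over chromosomes, the log2 coverage of chromosome 14 was -1.11 and -1.45 in the controls against -0.61 and -1.20 in the knockouts. That difference of 0.38 ± 0.24 (SE) was not called by limma over the 23 chromosomes (adjusted p = 0.566), which called 0 of 23 (0%).

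Peak number and width on chromosome 14 moved in opposite directions between the groups. The number of listed peaks per Mb was 42.7 and 39.3 in the controls against 65.2 and 47.4 in the knockouts, without overlap, a difference of 15.3 or 37.3% (exact permutation test, two-sided, p = 0.333). The median width was 1843 and 1385 bp in the controls against 997 and 1195 bp in the knockouts, again without overlap, a difference of -518 bp (p = 0.333 by the same exact test). Divided by the smallest width in each list, the medians were 5.09 and 3.75 in the controls against 3.79 and 3.53 in the knockouts. On that scale the groups overlapped. Narrower peaks were not particular to the chromosome, since both knockouts had lower median widths than both controls on all 23 (100%). More peaks per Mb in both knockouts were found on 12 of 23 (52.2%), with chromosome 13 (1.39-fold) and chromosome 14 (1.37-fold) the highest and a median of 1.02-fold over the others.

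The listed number is also set by where each list ends. Peak names carry serial numbers, which rise with position and were read as numbering all peaks called before the lists were cut to 250000. By these numbers chromosome 14 had 135 and 92.3 called peaks per Mb in the controls against 110 and 81.6 in the knockouts. The means of 114 and 95.6 differed by -18.2, the opposite direction from the listed peaks, and the groups overlapped. Of the numbers on chromosome 14 the lists held 31.6%, 42.5%, 59.6% and 57.9%, against 75.7%, 76.1%, 52.1% and 69.0% on chromosome 1.

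No 1-Mb window of chromosome 14 passed the test of knockout against control. In the fit over 2815 windows of the genome, limma called 0 of the 85 tested on the chromosome at an adjusted p under 0.05, against 4.23% of all windows. At an unadjusted p under 0.05 it had 6 of 85, or 7.06%, against 17.3% of all windows. At 100 kb limma called 0 of 839, against 0.0981% of all windows, and 61 (7.27%) had an unadjusted p under 0.05, against 15% of all. On chromosome 14 the knockout mean was lower in 50 of 85 windows, or 58.8%, against 89.7% of windows over the genome, and the median difference was -0.499 points against -6.33 points.

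Of the 8 windows with the smallest p, none of which passed, 4 lay in or next to the troughs, at 41, 46, 82 and 85 Mb. At 80 to 81 Mb coverage was 9.13% and 8.44% in the controls against 3.75% and 4.61% in the knockouts (difference -4.60 points, limma adjusted p = 0.133). At 82 to 83 Mb it was 8.78% and 13.8% against 5.38% and 5.96% (difference -5.64, adjusted p = 0.145), and at 98 to 99 Mb 5.78% and 6.90% against 2.15% and 3.33% (difference -3.60, adjusted p = 0.143). At 46 to 47 Mb it was 6.43% and 5.01% against 2.37% and 2.79% (difference -3.14, adjusted p = 0.199). With the replicate number as a block, which the labels do not tie to a shared batch, these 4 windows had adjusted p of 0.004, 0.002, 0.013 and 0.035 in that order and fell, as did 7.92% of all windows in that fit. The windows at 41 to 42 Mb (-2.59, adjusted p = 0.260), 79 to 80 Mb (-3.35, 0.283) and 85 to 86 Mb (-1.80, 0.314) followed. The last of the 8, at 33 to 34 Mb, was the only one higher in the knockouts (3.68, adjusted p = 0.314), and it rested on control 2, which had 1.71% against 10.7%, 11.7% and 8.09% in the other libraries; without control 2 the difference was -0.818.

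Of the windows of 100 kb with the smallest p, 7 of 8 were lower in the knockouts and none passed. Coverage of that starting at 98500001 was 13.4% and 12.4% in the controls against 0.301% and 3.24% in the knockouts (difference -11.2 points, limma adjusted p = 0.136). The one starting at 97100001, in the dense window at 97 to 98 Mb, had 43.9% and 35.3% against 10.0% and 23.7% (difference -22.8, adjusted p = 0.159). The one starting at 38400001, between the 2 places of the step, had 11.1% and 5.50% against 1.83% and 0 (difference -7.40, adjusted p = 0.199). The one starting at 56800001 was the only one higher in the knockouts, with 3.16% and 2.75% against 16.9% and 10.1% (difference 10.5, adjusted p = 0.197). Those starting at 53800001, 50600001, 30200001 and 62600001 had differences of -18.6, -8.98, -10.9 and -13.7 points.

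When listed peaks were counted in place of covered bases, 2 windows of 1 Mb rose. In the limma fit to log2(peaks + 1), 32 to 33 Mb had 62 and 51 peaks per Mb in the controls against 118 and 86 in the knockouts (difference 0.83, SE 0.20, adjusted p = 0.034), and 37 to 38 Mb had 58 and 43 against 114 and 76 (difference 0.89, SE 0.24, adjusted p = 0.045). Windows that rose in this fit were 2 of 85 here, or 2.35%, against 0.71% of all windows. Both kept overlapping groups in covered bases, with narrower peaks in the knockouts in the former (median 2537 and 2050 bp against 1295 and 1355 bp). Listed counts also depend on where each list ends, and this fit was not run on serial numbers. By serial number the stretch from 30 to 40 Mb, which holds both windows, had 145 and 103 called peaks per Mb in the controls. The knockouts had 143 and 97.1 there, and the groups overlapped.

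The 2 troughs held 10 of the 21 windows in which both knockouts lay below both controls. Over the chromosome these were 21 of 85 windows of 1 Mb (24.7%), against 63.9% of all windows in the genome. Of the 21 windows of the chromosome with a mean under 5%, 11 (52.4%) did so, against 43.5% at 1 to 5% on the other autosomes. These were 10 of the 12 inside the troughs and 1 of the 9 elsewhere, that at 98 to 99 Mb. Of the 64 denser windows 10 did so. In the trough at 83 to 88 Mb it was 5 of 5 windows, in that at 41 to 49 Mb 5 of 8, and before 41 Mb 2 of 20. Both knockouts lay above both controls in 3 windows (3.53%, against 1.46% of all), at 55 to 56, 61 to 62 and 78 to 79 Mb. Under the common limit on -log10 p the latter count was 65 of 82 windows, or 79.3%, against 59% of all.

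The windows of other autosomes at the same level gave a mixed comparison. Where the mean over 4 libraries was 1 to 5%, the ratio of knockout to control coverage was 0.7004 on chromosome 14 (21 windows) and 0.764 on the other autosomes (161 windows). At 5 to 10% it was 0.954 (40 windows) and 0.928 (261 windows). At 10 to 20% it was 0.990 (23 windows) and 0.753 (425 windows), although within that range windows elsewhere were denser, with a control mean of 18.0% against 12.5%. These ratios are descriptions. Below 10% the chromosome's windows lay near those of the same level elsewhere.

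In the whole lists the 2 troughs were deeper in the knockouts relative to the stretch between them. From 83 to 88 Mb coverage was 3.67% and 3.01% in the controls against 1.72% and 1.96% in the knockouts, while the stretch from 49 to 83 Mb held 11.3%, 8.28%, 10.2% and 8.49%. The stretch exceeded this trough 3.09-fold and 2.75-fold in the controls and 5.91-fold and 4.32-fold in the knockouts, without overlap, a log2 difference of 0.79 (exact permutation test, two-sided, p = 0.333). From 41 to 49 Mb coverage was 5.35%, 4.01%, 3.71% and 2.93%, and the same stretch exceeded it 2.12-fold, 2.06-fold, 2.75-fold and 2.90-fold, a log2 difference of 0.43 (p = 0.333 by the same exact test). The troughs and their borders were chosen after the data were seen. Another sparse stretch, from 26 to 30 Mb, was not lower in the knockouts, with 4.98% and 4.29% in the controls against 5.78% and 4.30%.

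The ratio of 49 to 83 Mb over the trough at 83 to 88 Mb was higher in the knockouts under each of the 4 readings of the lists. Its log2 difference was 0.85 with the common limit on -log10 p, 0.99 with that on -log10 q and 0.69 at equal covered length, without overlap in each, and leaving out any 1 library gave 0.57 to 1.02. For the trough at 41 to 49 Mb the values were 0.35, 0.12 and 0.28, and the groups overlapped with the limit on -log10 q. The trough's own coverage was lower in both knockouts in the whole lists only. It was 0.761% and 1.03% in the controls against 1.72% and 0.823% in the knockouts with the limit on -log10 p, 0.191% and 0.967% against 0.569% and 0.571% with that on -log10 q, and 1.40% and 1.43% against 1.72% and 1.33% at equal covered length, so the groups overlapped in each. In these readings the stretch from 49 to 83 Mb was the more densely covered in both knockouts, with 3.00% and 2.96% against 10.2% and 5.11% under the limit on -log10 p. In the whole lists both peak number and width in the 83 to 88 Mb trough were lower in the knockouts, with 25 and 24.4 listed peaks per Mb against 21.4 and 19.4, and a median width of 1066 and 879 bp against 658 and 620 bp. Number was lower by serial number too, with 111 and 77.8 called peaks per Mb in the controls against 41.6 and 44.6 in the knockouts. Listed peaks went the opposite way over the chromosome as a whole, where they were more numerous in both knockouts, while by serial number the chromosome's mean was also lower in the knockouts.

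**Figure D5:**
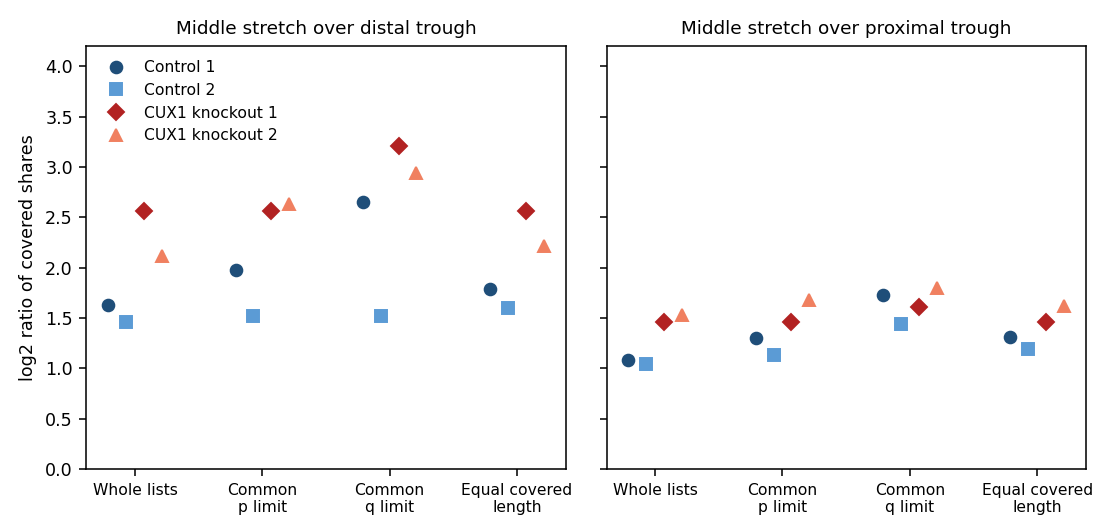
Log2 ratio of the covered share from 49 to 83 Mb over that of the trough at 83 to 88 Mb (left) and of the trough at 41 to 49 Mb (right) in each library (y axis), in the whole lists and in 3 readings that put the lists on a common footing (x axis). On the left the knockouts lie above the controls in each reading, and on the right in all but the common limit on -log10 q.

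The edges of the rule added little. No peak of the chromosome started before 19000000, and the first lay beyond 20 Mb in each library. The first stretch left out was covered over 5.00% to 10.7%, below the 12.4% to 18.3% within 500 kb on either side of it, and the second over 2.93% to 6.32%, against 1.39% to 4.60%. They held 75, 58, 124 and 71 peaks by library. With them included, coverage of the chromosome was 9.69%, 7.23%, 8.54% and 7.25%.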

How the data were processed

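H3K9me2 CUT&RUN peaks of 4 K562 libraries were used, grouped by their titles. The submitters' processing notes name MACS2 2.1.0, deepTools 3.5.1, BWA 0.7.17, SAMtools 1.16.1 and the build hg19. Settings and depth are not given in the sources used here. For each library the authors deposited 1 broad peak list. Each peak has a score, a fold (ratio) over the background nearby, and a p and a q on the -log10 scale, which are the authors' values and served only to describe, rank or filter peaks. No peak passed an hg19 chromosome end (0 chromosomes), while on 14 chromosomes one passed the hg38 end.

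Covered bases were counted on chromosomes 1 to 22 and X (Python 3.11.15). Percent covered per window was tested with limma 3.58.1 under R 4.3.3 (trended eBayes, Benjamini-Hochberg adjustment, threshold 0.05), over all windows of the genome whose mean was at least 1%. Single values were compared by exact permutation. Fits were tested on simulated data, with falls placed only in windows denser than nearly all of those on chromosome 14. The simulation therefore cannot show what the fits could detect in sparse windows. The 3 common readings were limits on -log10 p and on -log10 q and, by removing the weakest peaks, an equal covered length. The members, troughs and lists were chosen with earlier results of these data known. Windows named were the 5 densest and 5 sparsest per size, those from 36 to 46 Mb and the 8 with the smallest p; peaks named were the widest and the strongest per library. The 38.2-Mb place, the windows at 23 to 24 Mb and those above in both knockouts were chosen after their values were seen. Coverage of gene bodies was not analysed here, since no hg19 annotation was used.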

Additional observations from a re-analysis of the deposited data

How the results depend on the processing

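The difference in percent covered over the chromosome (-0.563 points, knockout minus control) became 3.84, 2.33 and 2.89 with the common limits on -log10 p and -log10 q and at equal covered length, and 0.106 as a ratio to the other autosomes. Leaving out 1 library at a time gave -1.78 to 0.652, positive without control 1 (0.652) and without knockout 2 (0.070). The group difference of the step (-0.10 on the log2 scale) became 0.0051 and 0.092 under the limits and stayed at -0.12 to -0.07 without any 1 library. That in peaks per Mb ran from 6.36 to 24.2 without 1 library but was -18.2 by serial number. The difference in median width ran from -747 to -289 bp without 1 library. As a multiple of the smallest width in each list it was -0.765, with overlapping groups. Calls among 1-Mb windows went from 0 to 4 with the replicate block (46, 80, 82 and 98 Mb, all fell). They were 1 with no minimum coverage (85 Mb, fell) and 2 by listed peak count. Over all 1-Mb windows the block called 8.24%, no minimum coverage 1.96% and peak count 2.66%. On the chromosome these calls were 4 of 85, 1 of 86 and 2 of 85. Calls among 100-kb windows were 0 with the block and 0 to 17 without 1 library, the 17 (all fell) without control 2. That fit left 1 control. Its calls were about as frequent over all windows of the genome and fell there too, so the 17 were not particular to chromosome 14. The block pairs libraries by number alone: over 2815 windows the difference between replicates correlated with r = 0.174 between groups, and over the 85 on chromosome 14 with r = 0.335. Named windows that changed direction had, under the limit on -log10 p, 1.15 (80 Mb), 0.068 (98 Mb), 0.818 (46 Mb), 0.081 (41 Mb), 1.98 (79 Mb), 0.463 (30200001) and 0.964 (62600001); under that on -log10 q, 0.545 (80 Mb), 0.083 (82 Mb), 0.239 (46 Mb) and 0.973 (79 Mb); at equal length, 0.076 (46 Mb) and 1.02 (79 Mb); by peak count, 0.32 (79 Mb); and at 33 Mb, without control 2, -0.818, the lowest of -0.818 to 8.18 without 1 library. The cause was not tested. The limits on p and q filter on values that depend on depth, which is unknown, and 2 libraries per group bound what any test could show.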
